A study of Mus musculus with 6 samples.

Results

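Oxidative phosphorylation is the step in which mitochondria burn the electrons taken from food to make ATP. Complex I (NADH dehydrogenase) and complex II (succinate dehydrogenase) feed electrons into the inner membrane, complex III passes them to cytochrome c, complex IV (cytochrome c oxidase) hands them to oxygen, and complex V (ATP synthase) uses the proton gradient to make ATP. Most subunits are encoded in the nucleus, translated in the cytosol and imported. In macrophages, reliance on this pathway is known to differ between activation states, with glycolysis favoured after inflammatory stimulation.

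The nuclear genes of these complexes were compared between Lyve-1- and Lyve-1+ macrophages of the mouse mammary gland. Members were the genes in the count table whose symbol starts with Ndufa, Ndufb, Ndufc, Ndufs, Ndufv, Uqcr, Cox4, Cox5, Cox6, Cox7, Cox8 or Atp5, together with Sdha, Sdhb, Sdhc, Sdhd and Cyc1. This gave 93 of 24061 gene symbols. Of these, 75 encode subunits, with 36 in complex I, 4 in complex II, 9 in complex III, 11 in complex IV and 15 in complex V. The rule also took in 7 assembly factors of complex I, 9 isoforms and relatives of complex IV subunits, and 2 further genes named Atp5s and Atp5sl. The subunits encoded by mitochondrial DNA were not analysed here.

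Both groups were CD45+CD11b+F4/80+ cells sorted from the number 4 (inguinal) mammary glands of FVB/N mice after collagenase digestion, and they differed in surface Lyve-1. There were 3 Lyve-1- and 3 Lyve-1+ libraries. The cells of 4 mice went into each, and the mice were 6 weeks old in replicate 1 and 10 weeks old in replicates 2 and 3. The values are RNA-seq counts, given below as CPM (counts scaled to the effective size of the library after TMM normalization). In pooled bulk RNA, fewer cells of a type and less RNA per cell cannot be told apart.

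Totals ran from 6478007 to 21406839 counts a library. Lyve1, the transcript of the sort antigen, was at 1.43, 6.66 and 7.43 CPM in Lyve-1- replicates 1 to 3 and at 2352, 788 and 597 CPM in Lyve-1+ replicates 1 to 3. The transcripts of the other sort antigens were present in all libraries, with Ptprc (CD45) at 645 to 1693 CPM, Itgam (CD11b) at 729 to 1232 CPM and Emr1 (F4/80) at 201 to 390 CPM. Lyve-1- replicate 3 and Lyve-1+ replicate 1 stood apart, with 20353 and 18665 genes detected against 11958 to 15087 in the other libraries. They also held counts on 641 and 363 of 1094 olfactory receptor genes, against 4 to 132 in the others. The fit was therefore also run without both, and its calls and subunit medians are given below. Values of single genes, sums and counts of genes without overlap include both libraries.

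Members that differed between the subsets beyond the spread of the libraries were sought in a fit across all genes. Of the 93 members 85 passed the filter on low counts, and those that did not were Ndufs5, Ndufaf6 and 6 isoforms of complex IV. Calls needed a log2 fold change of 1 to 10 in size and an adjusted p below 0.01 (edgeR's quasi-likelihood test, Benjamini-Hochberg adjustment). By this rule 0 members passed, where 15 of 13348 genes (0.112%) did. At an adjusted p under 0.05 with no limit on the fold change, 0 members passed, against 0.629% of all genes. At an unadjusted p under 0.05 there were 2 members (2.35%), against 7.69% of all genes, both higher in Lyve-1+ macrophages. DESeq2 also called 0 members. The smallest adjusted p of any member was 0.540, for Ndufa13.

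The 74 subunits tested had a median log2 fold change (Lyve-1+ over Lyve-1-) of 0.19, and 51 of them were above 0. Over all genes tested the median was -0.01 and 49.4% were above 0. Without the 2 libraries that stood apart the median of the subunits was 0.17, with 44 of 74 above 0, beside 0.01 for all genes. The size of the differences was small beside that of other genes, with a median absolute log2 fold change of 0.28 over the subunits and 0.54 over all genes tested. The subunits also varied less within a subset, with a median biological coefficient of variation of 0.538 against 0.686. Neither comparison was matched for expression level. Among the subunits tested, the standard error of the fold change fell as mean CPM rose (Spearman correlation -0.972). Whether the subunits differ from other genes of the same level was not tested.

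The data bound these differences only loosely for most genes. The 95% confidence interval of the log2 fold change had a median half-width of 1.23 over the subunits, and it lay within a 2-fold change in either direction for 12 of 74. Among these were Atp5a1, Atp5b, Atp5f1 and Atp5j of complex V, Cox5b, Cox6b1 and Cox7b of complex IV, and Uqcrc1 and Uqcrh of complex III. For the other 62 a 2-fold difference was inside the interval.

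**Figure D1:**
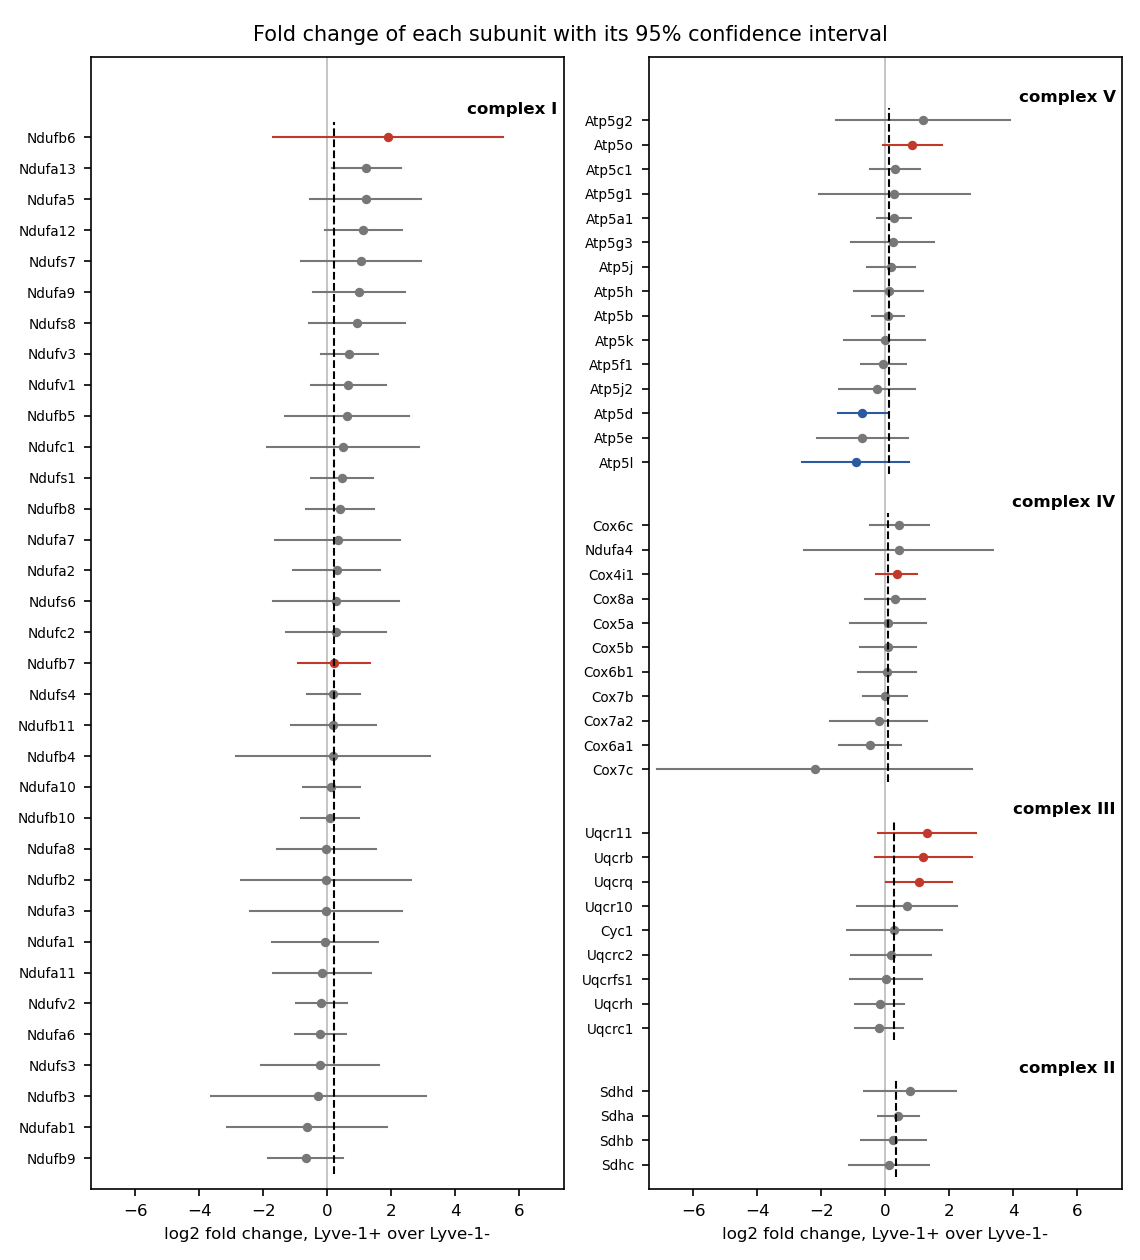
Log2 fold change of the tested subunits reported here (Lyve-1+ over Lyve-1-, points) with its 95% confidence interval (lines), by complex. Red marks genes with all 3 Lyve-1+ libraries above all 3 Lyve-1- libraries, blue the reverse, grey overlapping libraries, and the dashed lines are the complex medians, which lie between 0.08 and 0.33 while most intervals cross 0.

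By complex, the medians of the log2 fold change were 0.20 for complex I (24 of 35 tested above 0), 0.33 for complex II (4 of 4), 0.28 for complex III (7 of 9), 0.08 for complex IV (7 of 11) and 0.11 for complex V (9 of 15). All 5 were above the median of all genes. These medians depended on the settings. Complex IV fell to -0.00 when libraries were scaled by total counts, and complex V to -0.07 without the 2 libraries that stood apart. Complex II fell to 0.12, with 2 of 4 genes above 0, without Lyve-1- replicate 2 and to 0.18, with 3 of 4, without Lyve-1+ replicate 2, and it rose to 0.51 without Lyve-1- replicate 1.

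Genes whose libraries did not overlap between the subsets were counted next. All 3 Lyve-1+ libraries lay above all 3 Lyve-1- libraries for 8 of 85 members, where 7.82% of all genes tested did so. These were Ndufb6, Ndufb7, Ndufaf3, Uqcrb, Uqcrq, Uqcr11, Cox4i1 and Atp5o. The reverse held for 2 members, Atp5d and Atp5l, where the share over all genes was 6.5%. In total 11.8% of members did not overlap, which is below the 14.3% of all genes tested. Complex III held 3 of the 8, out of 9 subunits.

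The summed CPM of each complex was then read in each library. The 36 genes of complex I summed to 824, 811 and 816 CPM in Lyve-1- replicates 1 to 3 and to 1051, 1024 and 889 CPM in Lyve-1+ replicates 1 to 3. The Lyve-1- libraries were nearly equal and all Lyve-1+ libraries were above them, by a ratio of means of 1.21. With scaling by total counts the gap between the subsets narrowed to 864 CPM in the highest Lyve-1- library and 875 CPM in the lowest Lyve-1+ library. Of the difference in means of 171 CPM, Ndufa13 made up 19.0%, Ndufa12 13.3% and Ndufv3 12.7%.

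In the other 4 complexes the subsets overlapped. Complex II summed to 239, 153 and 235 CPM in the Lyve-1- libraries and 301, 321 and 194 CPM in the Lyve-1+ libraries. Complex III summed to 352, 213 and 358 CPM against 385, 349 and 381 CPM. For both, the low Lyve-1- value was that of replicate 2. Complex IV summed to 662, 447 and 557 CPM against 586, 598 and 644 CPM. Complex V, the most abundant, summed to 1414, 1157 and 1254 CPM against 1508, 1343 and 1286 CPM. The subsets overlapped in complexes II, III, IV and V, with ratios of means of 1.30, 1.21, 1.10 and 1.08.

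**Figure D2:**
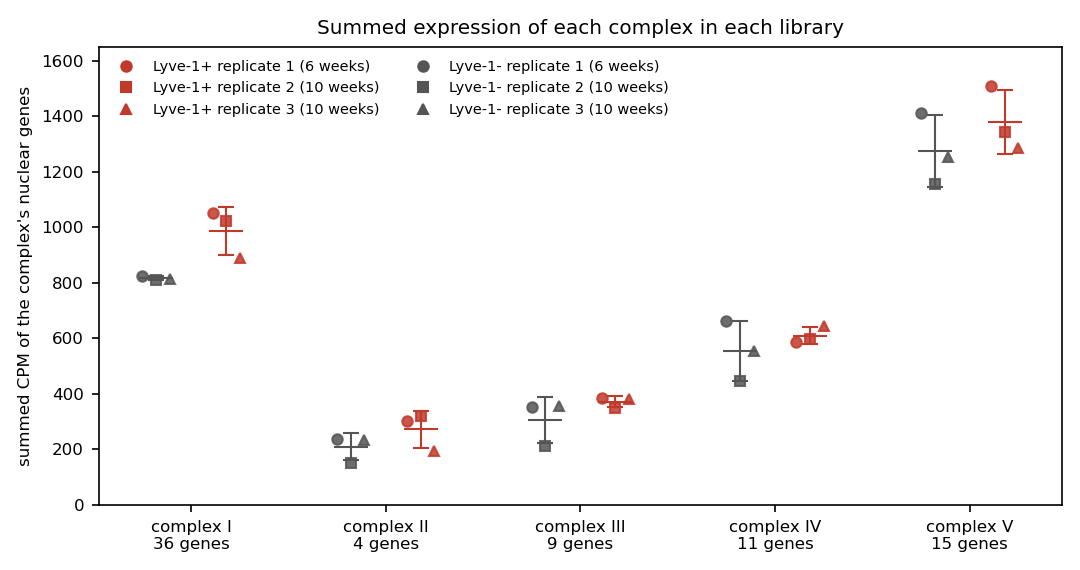
Summed CPM (y axis) of the nuclear genes of each complex (x axis) in the 3 Lyve-1- (grey) and 3 Lyve-1+ (red) libraries, with the mean and SD of each subset as bars. Complex I is the sum in which the subsets do not overlap, at 811 to 824 against 889 to 1051 CPM.

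Levels between genes were compared per length, as mean CPM over the 6 libraries per kb of the principal transcript in GENCODE M21. Atp5b, the catalytic beta subunit of ATP synthase, was the highest at 222 CPM per kb. The highest of the other complexes were Cox4i1 (149.6 CPM per kb), Uqcrh (141 CPM per kb), Ndufa6 (93.9 CPM per kb) and Sdhb (49.2 CPM per kb). The medians were 79.3 CPM per kb in complex IV, 53.8 in complex V, 34.6 in complex III, 34.0 in complex II and 22.1 in complex I, against 3.49 for the assembly factors of complex I.

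Some low levels went with features of the gene model. The 3 lowest subunits with counts, Ndufb2, Atp5g1 and Ndufab1, at 1.93 to 2.67 CPM per kb, have principal transcripts of 4371, 4715 and 3479 bases, against a median of 865 bases over the subunits. Ndufs5, a subunit of complex I, had 0 counts in all 6 libraries, which allows up to 0.144 to 0.437 CPM depending on the library. Of the 50-base windows of its transcript, 31.1% also occur in BC002163, a near copy that held 14.1, 9.86 and 14.9 CPM in the Lyve-1- libraries and 18.5, 42.3 and 13.9 CPM in the Lyve-1+ libraries. How reads that match more than one gene were counted is not given in the sources used here, so the level of Ndufs5 is uncertain.

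Such copies were common in the family. A 50-base window was shared with another annotated gene in 39 of 93 members, in 34 of them with a pseudogene, and 13 of 75 subunits shared at least 20% of their windows. Atp5g2 shared 87.4%, Atp5l 68.5%, Cox7c 53.0%, Atp5h 47.9% and Uqcrb 43.2%. The 12 of these that were tested had a median absolute log2 fold change of 0.76, against 0.28 for the other 62 subunits. Exons of 29 members overlap a gene on the opposite strand, and whether the counting used strand is not given in the sources used here.

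**Figure D3:**
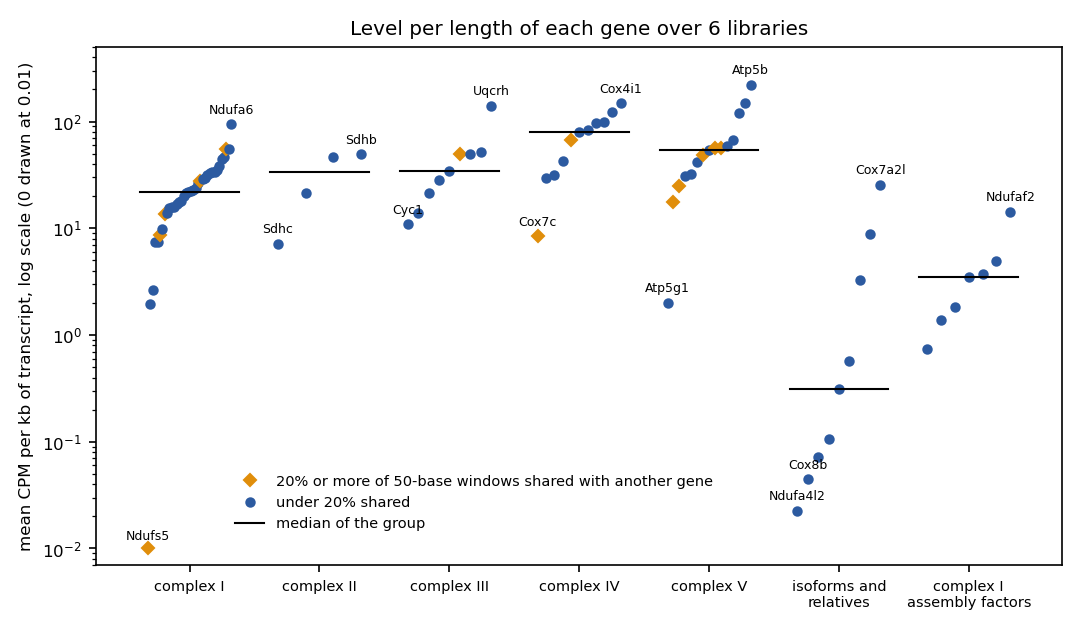
Mean CPM per kb of transcript over the 6 libraries (y axis, log scale) of each gene by complex, with black lines at the group medians and orange diamonds for genes that share at least 20% of their 50-base windows with another gene. Complex IV has the highest median, at 79.3 CPM per kb, and most of its isoforms lie under 1 CPM per kb.

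The promoters of these genes were examined because most subunits were expressed and several isoforms of complex IV were not. RefSeq promoters (GRCm38.p6, from 250 bases before to 50 bases after the start) were found for 76 of 93 members, with 68 promoters of 63 subunit genes. Letters of 7 known motifs were searched on both strands, and a promoter counted once however many matches it held. The NRF1 motif GCGCANGCG, that of a nuclear respiratory factor, was present in 30.9% of the subunit promoters and 6.25% of all 32851 promoters. The ETS motif CCGGAAG was present in 23.5% against 8.86%, and the YY1 motif AAGATGGCG in 10.3% against 1.40%. For the SP motif GGGCGG the shares were 38.2% and 35.7%, for the E-box CACGTG 10.3% and 7.15%, for the ERR motif TCAAGGTCA 2.94% and 0.42%, and for TATAAA 8.82% and 13.6%. The median GC content was 58.5% in the subunit promoters and 52.7% in all promoters, and the median number of CG pairs was 19.5 against 7.0. The NRF1, ETS and YY1 motifs each contain CG. Promoters of like CG content were not compared, so whether these shares go beyond it was not tested. In the 5 promoters of complex IV isoforms, the first 3 motifs were found in 0, the SP motif in 3 and TATAAA in 2. These 5 included Cox6b2 and Cox7a2l, which were expressed. Promoters of the expressed subunits Cox7b, Cox5b and Uqcrfs1 also had no match to the first 3 motifs or to SP. Whether the motifs go with expression was not tested.

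The promoters below show this range, with matches to the NRF1, ETS, YY1 and SP motifs on either strand in capitals. Atp5b is shown as the gene with the highest level, Sdha for 3 NRF1 matches, Cox6a1 for NRF1 and ETS matches together, Atp5j for adjacent YY1 and ETS matches, and Cox8b as an isoform with none of the 4. They lie at chr10:128083057-128083356 (+ strand), chr13:74350191-74350490 (- strand), chr5:115348909-115349208 (- strand), chr16:84834927-84835226 (- strand) and chr7:140900397-140900696 (- strand).
Atp5b: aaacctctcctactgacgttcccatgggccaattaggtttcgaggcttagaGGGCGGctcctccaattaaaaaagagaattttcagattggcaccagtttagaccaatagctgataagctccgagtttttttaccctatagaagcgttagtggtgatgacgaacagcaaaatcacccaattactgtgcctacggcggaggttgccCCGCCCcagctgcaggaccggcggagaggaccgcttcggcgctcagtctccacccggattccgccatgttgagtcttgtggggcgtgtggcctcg
Sdha: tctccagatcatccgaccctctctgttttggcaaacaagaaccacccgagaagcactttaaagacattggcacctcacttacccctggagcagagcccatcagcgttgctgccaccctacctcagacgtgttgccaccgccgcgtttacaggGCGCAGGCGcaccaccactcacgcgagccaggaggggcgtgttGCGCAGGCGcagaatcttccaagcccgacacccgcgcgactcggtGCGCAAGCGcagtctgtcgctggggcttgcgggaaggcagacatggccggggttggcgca
Cox6a1: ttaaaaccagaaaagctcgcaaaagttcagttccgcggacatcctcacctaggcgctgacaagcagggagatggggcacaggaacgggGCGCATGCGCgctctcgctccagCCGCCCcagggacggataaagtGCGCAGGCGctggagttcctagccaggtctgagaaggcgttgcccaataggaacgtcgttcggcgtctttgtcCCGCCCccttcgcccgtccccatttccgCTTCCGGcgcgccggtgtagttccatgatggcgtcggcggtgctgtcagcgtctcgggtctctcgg
Atp5j: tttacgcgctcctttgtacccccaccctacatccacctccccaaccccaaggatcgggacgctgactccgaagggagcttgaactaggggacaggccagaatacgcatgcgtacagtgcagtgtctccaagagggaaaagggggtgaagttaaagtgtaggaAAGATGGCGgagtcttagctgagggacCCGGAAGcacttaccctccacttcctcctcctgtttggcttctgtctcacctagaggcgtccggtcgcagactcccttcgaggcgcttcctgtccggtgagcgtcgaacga
Cox8b: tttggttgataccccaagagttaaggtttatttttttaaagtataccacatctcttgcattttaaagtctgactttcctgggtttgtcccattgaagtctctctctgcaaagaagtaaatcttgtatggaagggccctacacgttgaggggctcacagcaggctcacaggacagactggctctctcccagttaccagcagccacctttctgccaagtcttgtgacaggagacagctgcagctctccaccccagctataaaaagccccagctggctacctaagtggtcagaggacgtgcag

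In complex I, 7 of the 36 genes encode core subunits, which carry out electron transfer and are shared with bacteria, and 29 encode supernumerary subunits around that core. The core genes had a median log2 fold change of 0.46 over 7 tested and the supernumerary genes 0.20 over 28 tested. Ndufa6, a supernumerary subunit and the highest of the complex per length, was at 57.4, 54.8 and 66.5 CPM in the Lyve-1- libraries and at 53.5, 40.7 and 59.7 CPM in the Lyve-1+ libraries. The subsets overlapped. Its log2 fold change was -0.22 (95% confidence interval -1.01 to 0.58).

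The supernumerary subunit Ndufa13 (chr8:69894180-69902558, - strand), also known as GRIM-19, was chosen for description after its values were seen, as were Ndufb7 and Ndufa12. Ndufa13 was at 13.2, 20.2 and 40.7 CPM in the Lyve-1- libraries and 61.9, 70.9 and 38.6 CPM in the Lyve-1+ libraries. The highest Lyve-1- value, that of replicate 3, was above the lowest Lyve-1+ value. The log2 fold change was 1.22 ± 0.51 (SE), with an unadjusted p of 0.0304 and an adjusted p of 0.540 (edgeR, Benjamini-Hochberg), so it did not pass.

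Ndufa12, which sits on the arm facing the matrix, was at 11.6, 14.9 and 31.5 CPM against 38.8, 61.4 and 25.7 CPM. As in Ndufa13, Lyve-1- replicate 3 was the highest of its subset and Lyve-1+ replicate 3 the lowest of its own, and these values overlapped. Its log2 fold change was 1.12 ± 0.56 (SE) with an adjusted p of 0.707 by the same test.

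Ndufb6, of the membrane arm, had the largest positive fold change of the complex. It was at 0, 3.91 and 4.37 CPM in the Lyve-1- libraries and at 6.86, 11.6 and 12.5 CPM in the Lyve-1+ libraries. The libraries did not overlap, but at these low levels the log2 fold change of 1.90 had a 95% confidence interval of -1.69 to 5.50. Ndufb9, also of the membrane arm, had the largest negative fold change, at 38.5, 59.5 and 45.2 CPM against 34.7, 45.0 and 9.45 CPM. The low Lyve-1+ replicate 3 set it apart from the rest, and the log2 fold change was -0.68 (95% confidence interval -1.85 to 0.49). Ndufb7 was nearly constant, at 22.1, 23.0 and 22.2 CPM against 26.7, 25.5 and 25.1 CPM, so its libraries did not overlap although the log2 fold change was 0.20 (95% confidence interval -0.92 to 1.33).

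The assembly factors of complex I, which help build it and are not part of it, were low. Of 7, 6 were tested, 4 were above 0 and 0 had an unadjusted p under 0.05, and their intervals had a median half-width of 4.65 on the log2 scale.

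Complex II is the one complex that is also an enzyme of the tricarboxylic acid cycle, and all of its 4 subunits are nuclear. Sdha, the flavoprotein that oxidises succinate (chr13:74322254-74350280, - strand), was at 139.8, 106 and 103 CPM in the Lyve-1- libraries and at 179, 163 and 121 CPM in the Lyve-1+ libraries. Each Lyve-1+ library was above at least 2 of the 3 Lyve-1- libraries, and the log2 fold change was 0.41 (95% confidence interval -0.22 to 1.04). Sdhb, the iron-sulfur subunit, was at 55.0, 22.3 and 77.3 CPM against 49.1, 90.1 and 43.6 CPM, with no order between the subsets.

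The membrane anchors Sdhc and Sdhd bind the complex to the inner membrane. Sdhc was at 33.9, 13.3 and 18.7 CPM against 26.7, 26.3 and 17.9 CPM. Sdhd was at 10.7, 11.3 and 36.6 CPM against 46.2, 41.3 and 12.1 CPM. In Sdhd, Lyve-1- replicate 3 was far above the other Lyve-1- libraries and Lyve-1+ replicate 3 far below the other Lyve-1+ libraries. The log2 fold changes were 0.24 for Sdhb, 0.11 for Sdhc and 0.77 for Sdhd, and all intervals included 0.

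In complex III, Uqcrq (chr11:53427922-53430831, - strand), a small subunit beside cytochrome b chosen after its values were seen, was at 38.1, 11.9 and 34.1 CPM in the Lyve-1- libraries and 61.3, 55.3 and 59.2 CPM in the Lyve-1+ libraries. The Lyve-1+ libraries were tightly grouped and all above the Lyve-1- libraries. The log2 fold change was 1.06 ± 0.48 (SE), with an unadjusted p of 0.0438 and an adjusted p of 0.624 (edgeR, Benjamini-Hochberg).

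Uqcr11, another small subunit, had the largest fold change of the complex, at 18.7, 2.93 and 18.2 CPM against 25.7, 20.3 and 52.0 CPM. Uqcrb, a small subunit on the matrix side chosen after its values were seen, was at 12.2, 3.02 and 33.2 CPM against 40.5, 35.2 and 34.0 CPM. Neither overlapped between the subsets, and in both Lyve-1- replicate 2 was far below the other libraries. The log2 fold changes were 1.30 (95% confidence interval -0.23 to 2.83) and 1.18 (95% confidence interval -0.33 to 2.70).

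The subunits that carry electrons had smaller fold changes, and their intervals included 0. Cyc1, cytochrome c1, was at 9.91, 22.5 and 12.5 CPM against 23.8, 14.5 and 16.3 CPM, and its log2 fold change was 0.28. Uqcrfs1, the Rieske iron-sulfur protein, was at 36.2, 14.9 and 36.2 CPM against 27.8, 28.3 and 32.4 CPM, and its log2 fold change was 0.02 (95% confidence interval -1.10 to 1.14). The hinge protein gene Uqcrh was at 105, 61.5 and 79.7 CPM against 54.6, 67.5 and 96.1 CPM. The large core protein gene Uqcrc1 had the largest negative fold change, at 103, 60.3 and 99.0 CPM against 101, 63.5 and 65.4 CPM, with a log2 fold change of -0.19 (95% confidence interval -0.94 to 0.57). Cycs, the soluble cytochrome c that takes electrons from complex III and is no subunit, was at 17.98, 59.7 and 41.1 CPM against 53.2, 122 and 74.8 CPM, with an adjusted p of 0.581 (edgeR, Benjamini-Hochberg) and overlapping libraries.

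**Figure D4:**
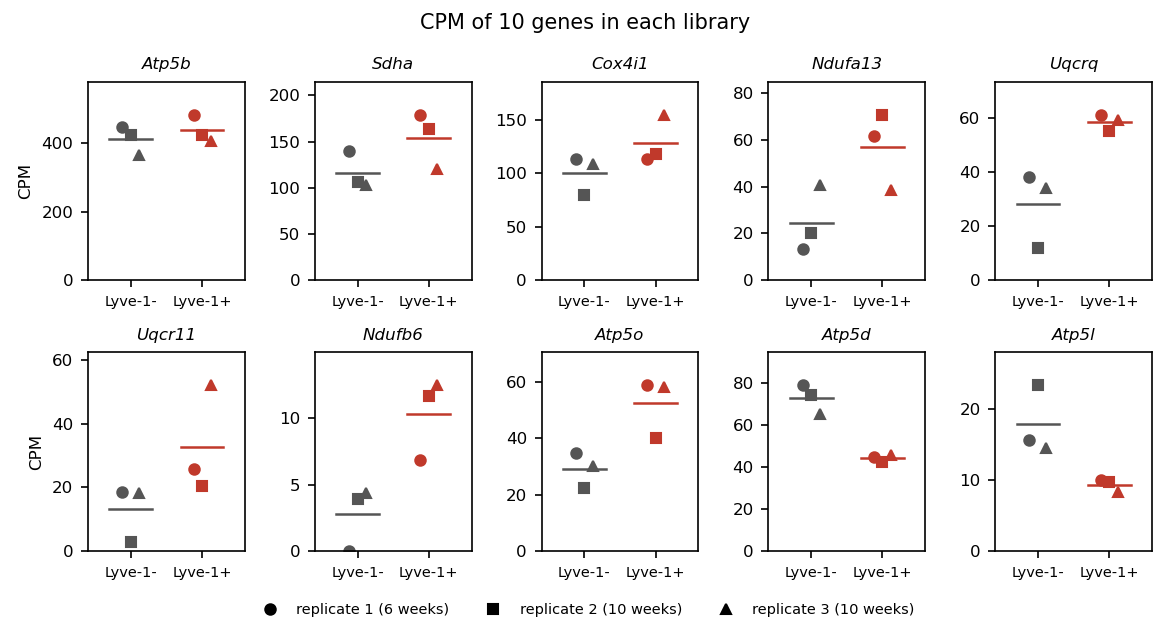
CPM (y axis, from 0) of 10 genes in each library, with circles, squares and triangles for replicates 1, 2 and 3 and lines at the subset means. Atp5b is nearly level between the subsets, the Uqcrq libraries do not overlap (11.9 to 38.1 against 55.3 to 61.3 CPM), and Atp5d goes the other way (65.2 to 78.6 against 42.1 to 45.6 CPM).

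Complex IV is the complex with tissue isoforms. Cox4i1 (chr8:120668222-120674207, + strand), the common regulatory subunit, was at 112.8, 79.5 and 109 CPM in the Lyve-1- libraries and at 112.9, 118 and 155 CPM in the Lyve-1+ libraries. The libraries did not overlap, although the values of replicate 1 nearly touched, and the log2 fold change was 0.36 (95% confidence interval -0.29 to 1.00). Its hypoxia-associated isoform Cox4i2 reached at most 1.17 CPM and was at 0 in 3 libraries.

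The common forms Cox6a1, Cox6b1, Cox7a2, Cox7b, Cox8a and Ndufa4 had log2 fold changes of -0.48, 0.05, -0.20, -0.01, 0.31 and 0.41. Cox7b was the best measured, at 124, 67.1 and 100.2 CPM against 97.1, 107 and 84.7 CPM, with an interval of -0.70 to 0.68. Ndufa4, once assigned to complex I, was at 17.0, 12.3 and 20.3 CPM against 12.4, 53.4 and 0 CPM, so that the Lyve-1+ libraries alone spanned its whole range.

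The muscle and brown fat forms Cox6a2 and Cox8b and the testis forms Cox7b2 and Cox8c had counts in 1 library each, of 2, 2, 7 and 2 reads, and Ndufa4l2 had 1 read in all. The reads of Cox6a2, Cox7b2 and Cox8c all lay in Lyve-1- replicate 3, the library with counts on 641 olfactory receptor genes, and those of Cox8b in Lyve-1+ replicate 2. Cox7a1, the form of heart and skeletal muscle, was at 0.924, 3.46 and 0.583 CPM against 1.68, 1.15 and 0 CPM. Cox6b2, the testis form of Cox6b1, reached 11.2 CPM in Lyve-1- replicate 1 and 10.5 CPM in Lyve-1+ replicate 3. Cox7a2l, which is known for joining complexes III and IV into supercomplexes, was the one relative at the level of a subunit, at 31.7, 20.8 and 47.1 CPM against 22.1, 12.8 and 30.5 CPM, with a log2 fold change of -0.61 (95% confidence interval -1.80 to 0.59). The markers of brown adipocytes summed to 3.64 to 47.4 CPM and those of skeletal muscle to 17.4 to 53.8 CPM over the 6 libraries, beside 3966 to 5299 CPM for the macrophage markers in the Lyve-1- and 4950 to 5951 CPM in the Lyve-1+ libraries.

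Cox6c had the largest positive fold change of complex IV, at 135, 34.6 and 60.8 CPM against 85.5, 102 and 125 CPM. The 6-week libraries went one way and the 10-week libraries the other, and the log2 fold change was 0.44 (95% confidence interval -0.48 to 1.36). Cox7c had the largest negative one, at -2.20 (95% confidence interval -7.12 to 2.72). It was at 0, 1.87 and 20.7 CPM against 1.52, 3.31 and 0 CPM, so the value rested on Lyve-1- replicate 3, and this gene shares 53.0% of its windows with copies.

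In complex V, the catalytic F1 head is built from alternating alpha and beta subunits, encoded by Atp5a1 and Atp5b. Atp5b (chr10:128083273-128090391, + strand) was at 447, 422 and 366 CPM in the Lyve-1- libraries and at 483, 424 and 406 CPM in the Lyve-1+ libraries. Atp5a1, chosen after its values were seen, was at 384, 287 and 341 CPM against 441, 382 and 396 CPM. These were the tightest estimates of all subunits, with log2 fold changes of 0.09 (95% confidence interval -0.42 to 0.60) and 0.27 (95% confidence interval -0.25 to 0.79), so a 2-fold difference was outside both intervals.

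Other subunits of complex V differed in direction. Atp5d, the delta subunit of the central stalk (chr10:80138632-80145818, + strand), was at 78.6, 74.2 and 65.2 CPM against 44.6, 42.1 and 45.6 CPM. Atp5o, which links the head to the outer stalk, was at 34.7, 22.5 and 30.2 CPM against 58.7, 40.2 and 58.1 CPM. Neither was named by rule, and both were picked once their values had been seen. The libraries overlapped in neither gene, and they went in opposite directions, with log2 fold changes of -0.72 ± 0.36 (SE) and 0.85 ± 0.44 (SE) and adjusted p values of 0.690 and 0.732 (edgeR, Benjamini-Hochberg). Atp5l, the g subunit of the membrane part, had the largest negative fold change, at 15.6, 23.4 and 14.6 CPM against 10.1, 9.73 and 8.32 CPM. Its log2 fold change of -0.93 had a 95% confidence interval of -2.60 to 0.74, and 68.5% of its windows occur in other genes.

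The c subunit, which forms the rotating ring, is encoded by 3 genes that give the same mature protein. Atp5g1 was at 4.54, 9.95 and 11.2 CPM against 4.88, 20.9 and 5.42 CPM. Atp5g3 was at 26.4, 11.99 and 24.1 CPM against 37.2, 14.0 and 21.8 CPM. Both overlapped. Atp5g2 had the largest positive fold change of the complex, at 0, 13.9 and 9.62 CPM against 13.03, 19.5 and 20.8 CPM, with a log2 fold change of 1.18 (95% confidence interval -1.54 to 3.91). Its 6-week Lyve-1- library was at 0, and its copies are the most extensive of the family.

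The effect of age (10 over 6 weeks) was fitted with a term for the subset. There was 1 library of each subset at 6 weeks, so age and pool cannot be told apart at that age. For age, 0 of 85 members had an adjusted p under 0.05 and 0 had an unadjusted p under 0.05 (edgeR), where the shares over all genes were 0.0225% and 3.33%. For a difference between the ages in the effect of the subset, 0 members had an adjusted p under 0.05 against 0.00749% of all genes. Atp5g2 and Cox6c had an unadjusted p under 0.05, as did 4.59% of all genes, and their adjusted p values were 0.656 and 0.976 (edgeR, Benjamini-Hochberg).

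Within each age the subunits had a small median difference in the same direction. On the scale of log2(CPM + 2), Lyve-1+ minus Lyve-1-, it was 0.20 at 6 weeks, with 44 of 74 above 0, and 0.16 at 10 weeks, with 50 of 74 above 0. Over all genes tested the medians were 0.18 and -0.06. At 6 weeks the subunits were thus near the median of all genes. That comparison has 1 library of each subset, and its Lyve-1+ library is one of those that stood apart. At 10 weeks Lyve-1- replicate 3 is the other. Their effect on the medians of all genes at each age was not tested. Complex IV was at -0.06 at 6 weeks and at 0.06 at 10 weeks.

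Genes of neighbouring pathways were read off the same fit. The 18 genes of the tricarboxylic acid cycle, which supplies the electrons, had a median log2 fold change of 0.42 with 14 above 0. Of these 0 passed an adjusted p of 0.05, against 0.629% of all genes. The largest was Idh2, the mitochondrial NADP-dependent isocitrate dehydrogenase, at 59.3, 46.9 and 46.9 CPM in the Lyve-1- libraries and 243, 87.1 and 86.3 CPM in the Lyve-1+ libraries. These did not overlap, and the log2 fold change was 1.44 (95% confidence interval 0.57 to 2.32) with an adjusted p of 0.192 (edgeR, Benjamini-Hochberg). The lowest was Idh3g, of the NAD-dependent enzyme, at -0.45. Summed over the cycle, the Lyve-1- libraries were at 994 to 1167 CPM and the Lyve-1+ libraries at 1207 to 1472 CPM, without overlap. Of the 18 genes, 5.56% had an unadjusted p under 0.05 (edgeR), against 7.69% of all genes. Libraries did not overlap for 11.1% of the 18, against 14.3% of all genes.

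The 16 genes of glycolysis had a median log2 fold change of -0.12 with 4 above 0. Of these Pfkl was the largest at 0.74, while Gapdh was the lowest at -2.16 from 14.2 CPM or less in every library. Windows shared with other genes were searched for the members only, so copies of Gapdh were not examined. How reads that match several genes were counted is not given, so the level of Gapdh is uncertain. The 11 electron carriers and metabolite carriers had a median of 0.14, with Vdac2 the lowest at -0.50, and the 25 tested assembly factors of complexes II to V had a median of 0.10, from Cox11 at -1.49 to AI462493 at 1.84. The 13 tested regulators of mitochondrial gene expression, from Ppargc1a at -1.77 to Tfb2m at 1.94, had a median of -0.02. The value of Ppargc1a (95% confidence interval -6.49 to 2.95) rested on Lyve-1- replicate 3, one of the libraries that stood apart, since it was at 0, 0 and 24.8 CPM in the Lyve-1- and 2.21, 2.64 and 2.39 CPM in the Lyve-1+ libraries. The intervals of Gapdh, Cox11, AI462493 and Tfb2m also included 0. Among these 4 lists, 0 genes passed an adjusted p of 0.05 by edgeR, against 0.629% of all genes. At an unadjusted p under 0.05, the share over all genes was 7.69%. There were 2 in glycolysis (12.5%), both lower, and 0 regulators. The lists of carriers (9.09%) and assembly factors (4.0%) had 1 each, both higher.

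Markers of other cell types were read by sum and direction, and 0 of them were called, against 0.112% of all genes tested. Over all genes tested 49.4% were above 0, and 7.82% had all 3 Lyve-1+ libraries above all 3 Lyve-1- libraries. The sums of the fibroblast and dendritic cell markers did not overlap between the subsets, and those of the other cell types did. Of 8 fibroblast markers, 7 were higher in Lyve-1+ macrophages and 5 without overlap, and their sum was 259 to 318 CPM in the Lyve-1- and 472 to 1414 CPM in the Lyve-1+ libraries. All 6 dendritic cell markers were lower, with sums of 402 to 869 CPM and 123 to 364 CPM, and 4 of 5 neutrophil markers were higher, with sums of 20.6 to 59.0 CPM and 48.2 to 297 CPM. Of 8 mammary epithelium markers 7 were lower, with sums of 41.8 to 289 CPM and 71.2 to 95.5 CPM. All 5 tested T cell markers were lower, with sums of 134 to 214 CPM and 29.3 to 184 CPM, and all 4 tested B cell markers were higher, with sums of 3.02 to 29.6 CPM and 10.1 to 84.2 CPM. Lymphatic endothelium summed to at most 60.2 CPM and adipocytes to at most 33.0 CPM. The testis list summed to at most 11.2 CPM, but it includes the members Cox6b2, Cox7b2 and Cox8c. That highest value, in Lyve-1- replicate 1, was the value of Cox6b2 itself, so it is no separate marker of testis cells. Listed at 0 in all libraries were Pvalb of the muscle list, Ccl21a of the lymphatic list and Prm1 and Tnp1 of the testis list. The part of these cells in the values of the subunits was not tested.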

How the data were processed

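RNA was extracted from sorted macrophages with the RNeasy Mini Kit and made into libraries with the SMARTer Stranded Total RNA-seq Kit-Pico. The authors mapped paired-end reads to mm10 (GRCm38) with HISAT2 2.0.2, counted reads per gene with featureCounts 1.5.0 and deposited raw counts for 24061 gene symbols, without normalization. The methods state that short genes were removed and that an outlying 6-week library was left out. The annotation, the strand setting and the handling of multi-mapped reads are not given in the sources used here.

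Genes kept by filterByExpr (13348) were normalized by TMM and tested with edgeR 4.0.16 (R 4.3.3, limma 3.58.1), by the quasi-likelihood F test with a single term for subset, and p-values were adjusted over all of them by Benjamini-Hochberg. DESeq2 (1.42.0), the tool of the study, was an alternative. A call needed an adjusted p below 0.01 and a log2 fold change of between 1 and 10 in either direction. Intervals are 95% intervals of that fit. Medians over members carry no test. A count of 0 allows up to 3 counts, a limit that covers counting error only. Each library is a pool of 4 mice. The labels do not say whether libraries of the same number came from the same mice. P-values measure the spread between these libraries.

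Gene models came from GENCODE M21, where 22749 symbols matched directly, 935 through a synonym and 377 did not match. Promoters came from RefSeq.

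The members, lists and motifs were chosen with earlier results of these data known. Named were, per complex, the gene highest per length and those with the largest positive and negative fold change, all of complex II, Cyc1, Uqcrfs1, the complex IV isoforms with their counterparts, the Atp5g genes, and the extremes of each other list described. Alternatives were DESeq2, its size factors in edgeR, total and upper-quartile scaling, no filter, a minimum of 10 counts per library, a replicate block, an age term, only the 10-week libraries, dropping ribosomal and small RNA genes, an adjusted p under 0.05 alone and each library left out. Leaving out both libraries that stood apart was added after seeing the data. The values of 1 member are not reported here, and it is counted in the totals.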

Additional observations from a re-analysis of the deposited data

How the results depend on the processing

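Under all 17 alternative fits, 0 members were called, and 0 had an adjusted p under 0.05. The smallest adjusted p of any member was 0.324, without Lyve-1- replicate 3, and between 0 and 5 members had an unadjusted p under 0.05. The median log2 fold change of the subunits stayed above 0, from 0.12 to 0.28. Leaving out each library in turn gave 0.14 to 0.40 for complex I, 0.12 to 0.51 for complex II and 0.19 to 0.63 for complex III, the lowest for complex III without Lyve-1+ replicate 1 and the highest without Lyve-1- replicate 2. Complex IV fell to -0.00 with total scaling, and complex V to -0.07 with Lyve-1- replicate 3 and Lyve-1+ replicate 1 both left out. Of 29 named members with a fold change, 13 kept its sign in every alternative that gave one, and 16 did not. The cause was not tested.

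The number of genes called over the whole table was less stable. It was 15 in the fit reported, 151 with DESeq2, 188 with no filter on low counts, 32 with at least 10 counts in every library, 58 with age as a covariate and 84 at an adjusted p under 0.05 alone. Without Lyve-1- replicates 1, 2 and 3 it was 65, 35 and 1, and without Lyve-1+ replicates 1, 2 and 3 it was 23, 81 and 46. With both libraries that stood apart left out, edgeR called 0 genes, with 639 at an unadjusted p under 0.05.

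With the replicate number as a block, 140 genes and 0 members were called, and the median of the subunits was 0.17. The deviations of same-numbered libraries from their subset means correlated at 0.023, 0.021 and -0.028 over 13348 genes. Of 6 libraries, 4 correlated best with their own number. Correlations this near 0, over genes that are mostly noisy, cannot decide whether the numbers pair the samples. The labels do not say so either.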
